A study of Mus musculus with 6 samples.

Results

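The tissue isoforms of 5 glycolytic enzymes were followed in mouse skeletal muscle that received the transcription factor TFEB. The 10 genes were those of enolase (Eno2, Eno3), aldolase (Aldoa, Aldoc), phosphofructokinase (Pfkm, Pfkl, Pfkp), phosphoglycerate mutase (Pgam2) and lactate dehydrogenase (Ldha, Ldhb), out of 12393 genes with a probe set of their own. They were chosen by name, as the muscle form of each enzyme and its brain, liver or more widely expressed counterparts. Every probe set (a group of short oligonucleotides that reads 1 transcript) whose only gene symbol was 1 of these 10 was taken, which gave 19 probe sets and left none out for carrying several symbols.

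The TFEB group was muscle of 3 C57BL/6 mice that had been injected with an adeno-associated virus (AAV) carrying murine Tfeb, called Tcfeb in the labels, and the GFP control group was muscle of 3 other C57BL/6 mice injected with an AAV for green fluorescent protein. The labels describe the mice as wild type with an age of 1 month, the study calls them adult, and the labels do not name the muscle that was sampled. Per the study's text, both vectors used the cytomegalovirus promoter, which is not restricted to muscle fibres, and tissue was taken some weeks after injection. Each mouse gave 1 Affymetrix array of total RNA, and the labels number the 3 arrays of a group as biological replicates 1 to 3. All values below are log2 expression values of the deposited table, and ± is the SD over 3 arrays for a mean and the standard error (SE) for a difference. A gene passed the threshold with at least 1.5-fold change and an adjusted p below 0.05 in the limma fit of 22626 probe sets, and a gene with several probe sets was counted at the one of highest mean.

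Many steps of glycolysis are each run by a small family of related enzymes, and tissues differ in which family member they use. Adult fast muscle fibres are known for beta-enolase (Eno3), aldolase A, the M type of phosphofructokinase, the M type of phosphoglycerate mutase and the A chain of lactate dehydrogenase, all at very high amounts. Gamma-enolase (Eno2) is the classical neuronal form, aldolase C the brain form, Pfkl the liver type, Pfkp the platelet type, and Ldhb the chain that prevails in heart and oxidative fibres.

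TFEB binds E-boxes with the core CACGTG, the centre of the longer CLEAR motif of lysosomal genes, in which GT precedes and AC follows this core, so the promoters of the 10 genes were read for these letters on both strands, in the 250 bases before each of their 17 RefSeq starts (GRCm38.p6). CACGTG lay in 2 of the 17 windows, those of 1 of 2 Ldha starts and 1 of 4 Pfkm starts, against 6.02% of 32851 windows of all genes. The full CLEAR motif lay in none, against 0.24% of all windows. The looser form CANNTG, which includes CACGTG, lay in 12 of the 17 windows and in 7 of the 10 genes, against 66.2%. The hypoxia element core ACGTG, which overlaps CACGTG, lay in 5 windows of Aldoa, Ldha and Pfkm, against 16.6%. The 200 bases before the start are shown for the enolase pair, whose members differed most in their change, and for Ldha, which held the only repeated match. The windows are chr6:124769674-124769873 on the minus strand for Eno2, chr11:70656976-70657175 on the plus strand for Eno3 and chr7:46845604-46845803 on the plus strand for Ldha, with CACGTG in capitals.
Eno2: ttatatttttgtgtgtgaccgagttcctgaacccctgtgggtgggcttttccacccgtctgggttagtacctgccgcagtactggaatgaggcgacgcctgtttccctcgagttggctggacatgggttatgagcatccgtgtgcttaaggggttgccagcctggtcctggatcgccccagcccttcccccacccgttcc
Eno3: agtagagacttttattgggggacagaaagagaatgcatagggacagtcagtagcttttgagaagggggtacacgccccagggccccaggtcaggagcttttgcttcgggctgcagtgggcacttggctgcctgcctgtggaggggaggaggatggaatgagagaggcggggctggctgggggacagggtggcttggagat
Ldha: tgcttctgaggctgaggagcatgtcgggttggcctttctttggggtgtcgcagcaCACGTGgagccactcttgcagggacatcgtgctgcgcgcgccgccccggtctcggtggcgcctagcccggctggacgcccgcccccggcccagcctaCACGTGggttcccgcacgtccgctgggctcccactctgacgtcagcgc
The 2 matches of Ldha began 145 and 48 bases before the start, and the Eno2 and Eno3 windows held none. The GC content was 58% for Eno2, 59% for Eno3 and 70% for Ldha. A match of letters is a description of the sequence, and no binding was measured on these arrays.

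Of the 10 genes, 1 passed the threshold higher in the TFEB group, none passed lower and 9 did not pass. Over all 12393 genes, 8.62% passed higher and 4.90% lower. The median log2 fold change was 0.04 for the 10 genes and -0.05 for all genes. The 5 muscle forms held the brightest values and gave log2 fold changes from -0.01 to 0.06, whereas the 5 other forms ran from -0.40 (Aldoc) to 4.36 (Eno2). With no fold limit, 33.6% of all genes had an adjusted p under 0.05, and of the 10 only Eno2 did. The TFEB arrays lay entirely above the GFP arrays for Eno2, Eno3 and Pfkl, 3 of 10 genes, against 22.9% of all genes. For no gene did they lie entirely below, against 28.2% of all genes.

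**Figure D1:**
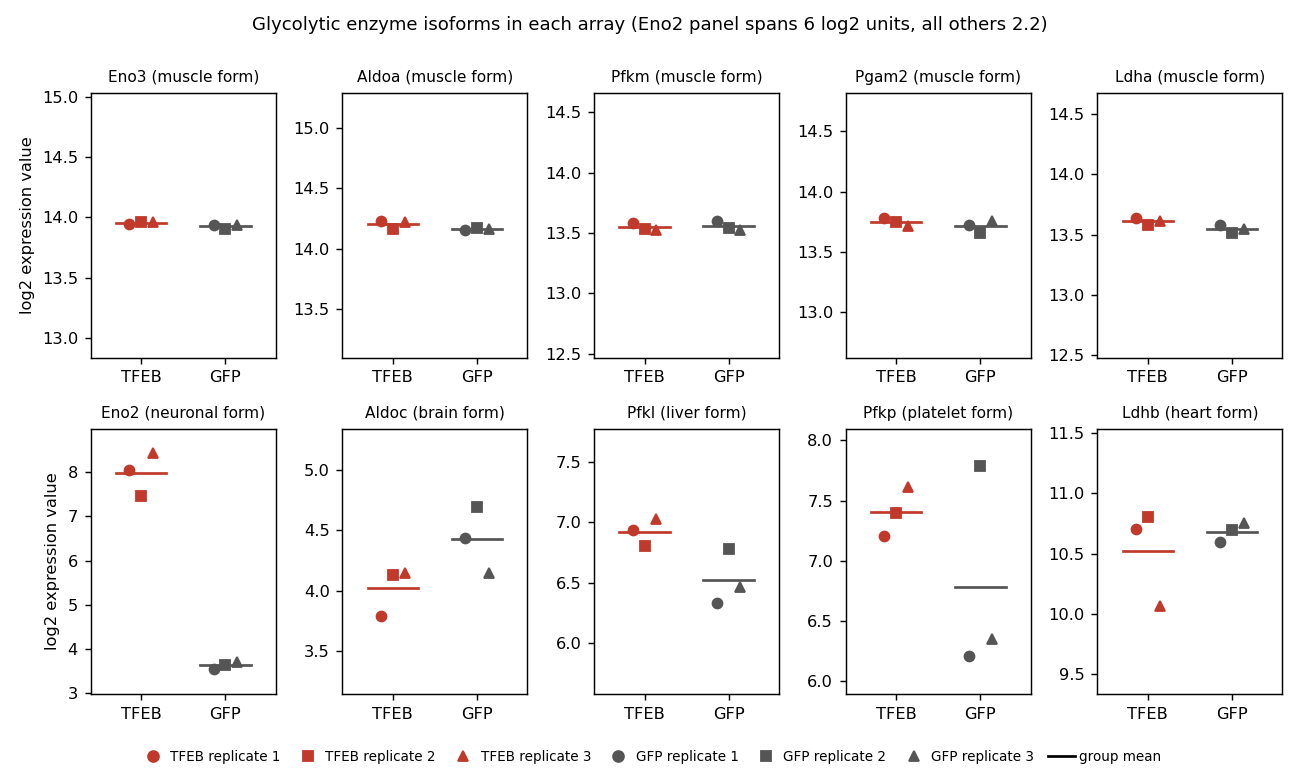
The log2 expression value of each gene is plotted in each array, with TFEB arrays (red) left of GFP arrays (grey), the symbol giving the replicate and the line the group mean of 3 arrays. The Eno2 panel spans 6 log2 units and all others 2.2, so that the muscle forms in the upper row appear flat, Eno2 shows 2 separate groups, and GFP replicate 2 (Pfkp, 7.78) and TFEB replicate 3 (Ldhb, 10.07) stand away from their groups.

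Enolase, which turns 2-phosphoglycerate into phosphoenolpyruvate, showed the largest change of the 10 genes. Eno2 read 8.06, 7.47 and 8.43 in TFEB replicates 1, 2 and 3, against 3.54, 3.64 and 3.71 in GFP replicates 1, 2 and 3. The groups lay far apart, and the spread was larger among the TFEB arrays (7.98 ± 0.49) than among the GFP arrays (3.63 ± 0.087, SD, n = 3 each). Eno2 rose 20.5-fold in the TFEB group (log2 fold change 4.36 ± 0.23 SE, 95% interval 3.81 to 4.90, limma adjusted p = 0.00029). Among all probe sets of an array it stood at percentiles 63.8 to 77.6 in the TFEB arrays and 10.4 to 12.4 in the GFP arrays. The bacterial TrpnX controls, which should have no target in mouse RNA, read 2.54 to 3.09 over all 6 arrays, so the GFP values of Eno2 were little above them and the fold is imprecise at its low end.

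Eno3, the beta-enolase of muscle, did not pass. It read 13.94, 13.96 and 13.96 in TFEB arrays and 13.94, 13.91 and 13.94 in GFP arrays. The groups did not overlap, but the log2 fold change was 0.03 ± 0.061 (95% interval -0.12 to 0.17, adjusted p = 0.77), and with arrays shifted to equal medians it was -0.04. Eno2 and Eno3 were the only enolase genes among the single-symbol probe sets used here, and the widely expressed alpha-enolase was not analysed here.

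The neuronal name of Eno2 was set beside 15 neuron markers. Their mean level was 4.12 to 4.18 in the TFEB arrays and 4.08 to 4.13 in the GFP arrays. Of the 15, 2 passed, both higher, against 8.62% of all genes that passed higher. The median log2 fold change of the list was -0.11, with 11 of 15 genes below 0, among them Gap43 (-0.33, adjusted p = 0.015) and Map2 (-0.28, adjusted p = 0.025), both under the fold limit. The 2 that passed were Uchl1, a ubiquitin hydrolase (7.73, 7.51 and 7.42 in TFEB arrays, against 5.82, 5.96 and 5.80 in GFP arrays), and Tubb3, the class III beta-tubulin (4.95, 4.85 and 5.34 in TFEB arrays, against 4.29, 4.67 and 4.28 in GFP arrays). Stmn2, a growth cone protein gene and the second brightest of the list, did not pass (5.81, 5.92 and 5.68 in TFEB arrays, against 5.98, 6.01 and 6.13 in GFP arrays). The other Stmn2 probe set was lower and past the threshold without GFP replicate 2 (log2 fold change -0.67, limma adjusted p = 0.018). Snap25, a synaptic fusion protein gene named after its values were seen, read 2.53, 2.62 and 2.69 in TFEB arrays and 2.72, 2.86 and 3.03 in GFP arrays, at the level of the TrpnX controls. Most developmental muscle genes of the list moved with Eno2. Their list had a mean level of 9.22 to 9.59 in the TFEB arrays and 6.94 to 7.17 in the GFP arrays. Of its 16 genes 12 passed higher, against 8.62% of all genes. The part of developmental muscle genes in the Eno2 result was not tested. The brightest gene of that list, Des, did not pass (log2 fold change 0.20, limma adjusted p = 0.11). Actc1, the cardiac actin of immature fibres, read 13.43, 13.52 and 13.60 in TFEB arrays and 11.61, 11.72 and 11.85 in GFP arrays.

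The genes whose values were closest to those of Eno2 across the 6 arrays, after subtracting each gene's GFP mean, were Gpnmb (Euclidean distance 0.32 log2 units), a transmembrane glycoprotein gene, Prl7a2 (0.54), of the prolactin family, and Myh8 (0.57), the perinatal myosin heavy chain. Their log2 fold changes were 4.41, 4.55 and 4.35, beside 4.36 for Eno2. With 6 arrays in 2 groups, such a distance mostly matches the size of the change.

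Aldolase, which splits fructose 1,6-bisphosphate, did not pass in either form. Aldoa, the muscle form, read 14.23, 14.16 and 14.22 in TFEB arrays and 14.16, 14.17 and 14.16 in GFP arrays. The groups overlapped, with a log2 fold change of 0.04 ± 0.063 (adjusted p = 0.65), which was -0.03 with equal medians. All 4 Aldoa probe sets gave 0.02 to 0.05. Each bears the suffix _x_at, by which Affymetrix marks probe sets that may share sequence with other transcripts, so reads of related transcripts cannot be told apart from those of Aldoa.

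Aldoc, the brain form, lay low in every array. Its brighter probe set read 3.79, 4.13 and 4.15 in TFEB arrays and 4.43, 4.69 and 4.15 in GFP arrays. TFEB replicate 3 and GFP replicate 3 met at the same value. The log2 fold change was -0.40 ± 0.16 (95% interval -0.79 to -0.02, adjusted p = 0.10). The second probe set read 2.68, 2.91 and 2.96 in TFEB arrays and 2.99, 3.22 and 3.11 in GFP arrays, without overlap, at -0.26 ± 0.10 (adjusted p = 0.10). The values of the second probe set lay at those of the TrpnX controls, where a change in RNA is read only in part, and those of the brighter one lay above them but low on the scale. Aldoc had the largest negative value of the 10 genes, and the genes closest to it over the 6 arrays were an immunoglobulin kappa variable gene (distance 0.17), Lrrc8c (0.17) and Snx10 (0.22).

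Phosphofructokinase, which commits sugar to glycolysis as a tetramer of M, L and P subunits, did not pass in any of its 3 forms with all arrays, and Pfkp did so without 1 control array. Pfkm, the muscle type, read 13.58, 13.53 and 13.53 in TFEB arrays and 13.60, 13.54 and 13.53 in GFP arrays. The groups overlapped almost completely. The log2 fold change was -0.01 ± 0.065 (adjusted p = 0.94), with the opposite sign when arrays were scaled to fast fibre genes (0.05).

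Pfkl, the liver type, read 6.94, 6.80 and 7.03 in TFEB arrays and 6.33, 6.78 and 6.46 in GFP arrays at its brighter probe set. The groups did not overlap, although GFP replicate 2 came within 0.02 of the lowest TFEB array. The log2 fold change of 0.40 ± 0.13 (95% interval 0.09 to 0.71) did not pass (adjusted p = 0.055). The other probe set read 6.55, 6.72 and 6.62 in TFEB arrays and 6.20, 6.76 and 6.49 in GFP arrays, with overlap and a log2 fold change of 0.14 ± 0.14 (adjusted p = 0.47).

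Pfkp, the platelet type, read 7.21, 7.39 and 7.61 in TFEB arrays and 6.21, 7.78 and 6.35 in GFP arrays. GFP replicate 2 was the highest of all 6, while GFP replicates 1 and 3 lay under every TFEB array. With all arrays the log2 fold change was 0.62 ± 0.40 (95% interval -0.34 to 1.58, adjusted p = 0.27). Without GFP replicate 2 it was 1.13 ± 0.13 (95% interval 0.82 to 1.43 on the log2 scale, limma adjusted p = 0.00089). That is 2.18-fold higher in the TFEB group, and Pfkp passed beside Eno2. Since the array left out held the highest Pfkp value, its removal by itself widens the difference and narrows the spread. In that comparison 12.3% of all genes passed higher and 6.36% lower. The second Pfkp probe set gave no such difference. It read 5.32, 5.85 and 5.60 in TFEB arrays and 5.46, 6.46 and 5.77 in GFP arrays, giving -0.31 ± 0.26 on the log2 scale with all arrays (adjusted p = 0.40) and -0.02 ± 0.17 without GFP replicate 2 (adjusted p = 0.93). The sources used here do not say which Pfkp transcripts each probe set reads. Without GFP replicate 2 the TFEB arrays lay above both remaining controls for 4 of the 10 genes, against 30.0% of all genes. Pfkl then reached an adjusted p of 0.0062 at a log2 fold change of 0.53, under the fold limit.

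GFP replicate 2 stood apart from the other controls over the whole array, differing more than 2-fold from GFP replicates 1 and 3 at 844 and 725 probe sets, whereas those controls differed from each other at 87 and TFEB arrays from each other at 45 to 101. Macrophage markers moved with it. The mean level of the 15 measured macrophage genes was 8.52, 9.36 and 9.28 in TFEB arrays and 7.14, 9.32 and 7.28 in GFP arrays. The brightest, Lyz1, a lysozyme gene, read 11.68, 12.54 and 12.43 in TFEB arrays and 10.56, 12.54 and 10.93 in GFP arrays, and Lyz2 read 10.51, 11.58 and 11.34 in TFEB arrays and 9.43, 11.54 and 9.81 in GFP arrays. The Lyz1 probe set given here bears the suffix _x_at. Without GFP replicate 2, the Lyz1 probe set lacking that suffix gave -0.11 (limma adjusted p = 0.49). The dimmest of the 15 averaged 4.95, above the TrpnX controls. Of the 15 genes, 1 passed higher with all arrays and 14 without GFP replicate 2, against 8.62% and 12.3% of all genes. The same array exceeded the mean of the other controls by 1.5 and 0.85 at the Pfkp probe sets, by 0.38 and 0.42 at those of Pfkl and by 0.40 and 0.18 at those of Aldoc, and by 0.01 for Eno2. The part of macrophages in the phosphofructokinase values was not tested. In bulk muscle, a change in the number of cells of a type and a change of RNA per cell cannot be told apart.

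**Figure D2:**
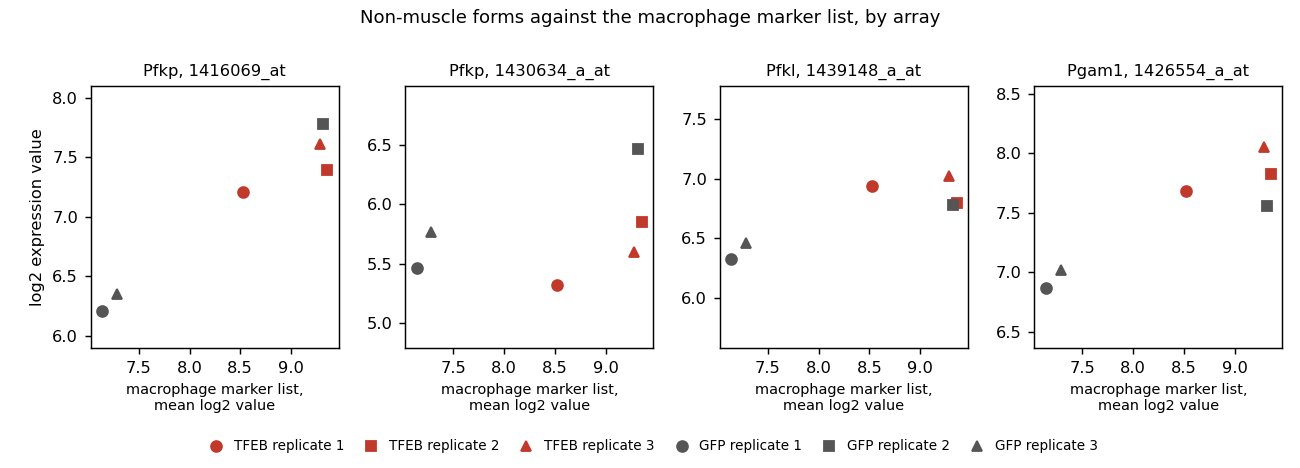
The log2 expression values of both Pfkp probe sets, of the brighter Pfkl probe set and of Pgam1 are plotted against the mean log2 value of 15 macrophage markers, with TFEB arrays in red, GFP arrays in grey and the symbol giving the replicate. GFP replicate 2, at a marker level of 9.32, lies beside TFEB replicates 2 and 3 (9.36 and 9.28) and away from GFP replicates 1 and 3 (7.14 and 7.28).

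Phosphoglycerate mutase moves the phosphate of 3-phosphoglycerate, and its muscle form Pgam2 read 13.78, 13.75 and 13.72 in TFEB arrays and 13.72, 13.66 and 13.76 in GFP arrays. The groups overlapped, at a log2 fold change of 0.04 ± 0.066 (adjusted p = 0.70), or -0.03 with equal medians. Its partner Pgam1, the brain or general form, read 7.68, 7.83 and 8.05 in TFEB arrays and 6.87, 7.56 and 7.02 in GFP arrays. All TFEB arrays lay above the controls, with GFP replicate 2 the nearest. Pgam1 rose 1.63-fold (log2 fold change 0.70 ± 0.19, adjusted p = 0.031). Leaving out any array other than GFP replicate 2 took the adjusted p past 0.05, to at most 0.11, and without GFP replicate 2 the log2 fold change was 0.91 (adjusted p = 0.0018).

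Lactate dehydrogenase, a tetramer of A and B chains that interconverts pyruvate and lactate, did not pass in either form. Ldha, with 2 CACGTG matches before the start shown above, read 13.64, 13.58 and 13.61 in TFEB arrays and 13.58, 13.52 and 13.55 in GFP arrays, and the groups met at 13.58. The log2 fold change was 0.06 ± 0.064 (adjusted p = 0.49), or -0.01 with equal medians. Ldhb read 10.71, 10.80 and 10.07 in TFEB arrays and 10.59, 10.70 and 10.76 in GFP arrays. TFEB replicate 3 was the lowest array at all 4 Ldhb probe sets, 0.56 to 0.67 under the mean of the other arrays, and the other TFEB arrays lay at or near the controls. The log2 fold change of -0.16 ± 0.19 (95% interval -0.61 to 0.30, adjusted p = 0.55) became 0.07 without that array. The slow fibre contractile genes, markers of the oxidative fibres in which Ldhb is prominent, had mean levels of 11.61, 11.11 and 11.21 in TFEB arrays and 11.18, 10.20 and 10.49 in GFP arrays. Of these 10 genes 2 passed higher, against 8.62% of all genes, and 8 did not pass. Their median log2 fold change was 0.59 with all arrays, and they differed in direction. Without GFP replicate 2, the array with the lowest mean level of this list, Casq2 gave 2.30 and Tnni1 1.22 on the log2 scale. Tnnt1 then gave 0.54, Myoz2 0.47, Myh7 0.44, Tnnc1 0.27 and Myl2 0.06. The probe sets of Atp2a2 gave 0.36 to 0.89, those of Tpm3 -0.53 to 1.46 and those of Myl3 -0.45 to -0.60. The part of fibre type in the Ldhb values was not tested.

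None of the muscle forms passed, and their values lay within narrow limits. Eno3, Aldoa, Pfkm, Pgam2 and Ldha had values between 13.5 and 14.2 in every array at each of their 8 probe sets, and the 95% intervals of the 5 fold changes together spanned 0.894-fold to 1.16-fold. These probe sets stood at percentile 99.85 or higher of every array and within 0.14 to 0.85 log2 units of its brightest value (14.34 to 14.37), where arrays compress differences, so the intervals bound the change of the signal and not that of the RNA. Fast fibre contractile genes lay in the same range, with a mean level of 13.96 to 13.99 in TFEB arrays and 13.99 to 14.01 in GFP arrays.

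The balance between the forms was read as the log2 difference of the other form minus the muscle form within each array, given here relative to the GFP mean. Probe sets differ in brightness for the same amount of RNA, so only the change of a balance between groups is meaningful. The muscle form of every pair lay near the top of the scale, so each balance mostly restates the change of the other form, and a change of the muscle form's RNA could go unread. Each of the 6 pairs was tested by an exact two-sided permutation test over 3 and 3 arrays, whose smallest possible p is 0.10, so no pair could reach 0.05. The balance of Eno2 over Eno3 stood at 4.41, 3.80 and 4.77 in TFEB arrays and -0.10, 0.03 and 0.07 in GFP arrays. Its change was 4.33 ± 0.29 (exact p = 0.10, 0.15 after Benjamini-Hochberg over 6 pairs), without overlap.

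Pfkl over Pfkm stood at 0.39, 0.30 and 0.53 in TFEB arrays and -0.24, 0.27 and -0.03 in GFP arrays, a change of 0.41 ± 0.16 (exact p = 0.10, adjusted 0.15). Pgam1 over Pgam2 stood at 0.46, 0.64 and 0.90 in TFEB arrays and -0.29, 0.46 and -0.17 in GFP arrays, a change of 0.67 ± 0.27 (exact p = 0.10, adjusted 0.15). In both pairs GFP replicate 2 came within 0.03 of the nearest TFEB array, and without it the changes were 0.54 and 0.90. Aldoc over Aldoa ran the other way, at -0.70, -0.30 and -0.33 in TFEB arrays and 0.01, 0.26 and -0.27 in GFP arrays, a change of -0.44 ± 0.20 (exact p = 0.10, adjusted 0.15). Pfkp over Pfkm overlapped between groups because of GFP replicate 2, at 0.40, 0.64 and 0.86 in TFEB arrays and -0.62, 1.02 and -0.40 in GFP arrays. Its change was 0.63 ± 0.53 (exact p = 0.40, adjusted 0.48), or 1.14 without that array. Ldhb over Ldha changed by -0.22 ± 0.24 (exact p = 0.70, adjusted 0.70), with TFEB replicate 3 at -0.68 and all other arrays between -0.12 and 0.09. The difference between pairs was not tested.

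**Figure D3:**
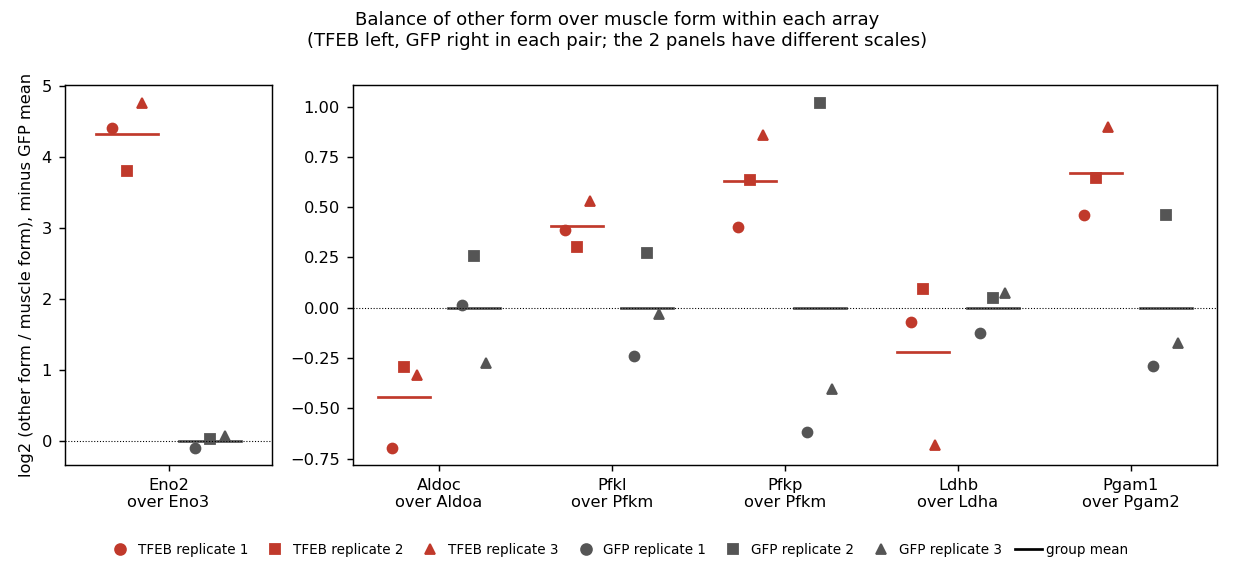
The log2 ratio of the other form over the muscle form in each array, minus the GFP mean, is plotted for 6 pairs, with TFEB arrays (red) left of GFP arrays (grey) and lines at the means of 3 arrays. Eno2 over Eno3 has its own scale and changed by 4.33, while the other 5 pairs changed by -0.44 to 0.67 and GFP replicate 2 (1.02) lies above all TFEB arrays for Pfkp over Pfkm.

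The other genes of the pathway were taken from 5 lists with 58 entries, older symbols included, of which 41 had a probe set of their own. Of these, 10 passed higher, 3 passed lower and 28 did not pass, against 8.62% of all genes higher and 4.90% lower. The median change of the 41 genes was 0.06 on the log2 scale. Without GFP replicate 2, 11 passed higher and 4 lower, against 12.3% and 6.36% of all genes. In the rest of glycolysis 9 of 18 entries were measured, and Pgam1 passed higher and Bpgm lower. Bpgm, the red cell enzyme that makes 2,3-bisphosphoglycerate, read 9.60, 9.45 and 9.38 in TFEB arrays and 10.36, 10.14 and 10.31 in GFP arrays, a change of -0.79 ± 0.094 (1.73-fold lower, adjusted p = 0.0021), with all 3 of its probe sets past the threshold. Red cell markers did not pass at any of 5 measured genes, where 13.5% of all genes passed in either direction. Their mean levels were 4.83 to 5.05 in TFEB arrays and 5.00 to 5.14 in GFP arrays. The bright enzymes Tpi1 (-0.07), Pgk1 (0.12) and Pkm (0.06) did not pass.

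Changes also stood at the entry of the pathway and at the control of phosphofructokinase. Both measured hexokinases rose, Hk1 by 1.35 ± 0.17 and Hk2 by 0.64 ± 0.11 on the log2 scale, the second just past the fold limit. The dimmer Hk1 probe set gave 0.88 ± 0.32 and did not pass (adjusted p = 0.074), with GFP replicate 2 (5.67) above TFEB replicate 3 (5.58). Pfkfb3, which makes and removes fructose 2,6-bisphosphate, the allosteric activator of phosphofructokinase, read 9.59, 9.19 and 8.53 in TFEB arrays and 11.11, 10.47 and 10.90 in GFP arrays. All TFEB arrays lay below all controls. Pfkfb3 was 3.30-fold lower in the TFEB group (log2 fold change -1.72 ± 0.29, adjusted p = 0.0059), and its other probe set gave -2.13. The other 3 measured genes of that list, Pfkfb2 (-0.08), Fbp1 (-0.10) and Fbp2 (0.35), did not pass.

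Among 8 genes of lactate and glycerol phosphate handling, Slc16a1, the monocarboxylate transporter MCT1, rose to 11.06, 10.76 and 11.02 in TFEB arrays, against 10.11, 9.93 and 10.09 in GFP arrays (1.87-fold, log2 fold change 0.90 ± 0.10, adjusted p = 0.0018). Slc16a3, the transporter of glycolytic fibres, did not pass (-0.21). Gpd2, the mitochondrial glycerol phosphate dehydrogenase, was lower by a log2 fold change of -0.59 ± 0.093, only 1.51-fold (adjusted p = 0.0048), and fell under the fold limit without TFEB replicate 2 (-0.58), GFP replicate 1 (-0.53) or GFP replicate 3 (-0.57).

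The list of other muscle and non-muscle isozymes sets enzymes outside glycolysis beside the enolase pair. It was chosen with earlier results of these data known, so its count is a description and not a test. Against 8.62% of all genes higher and 4.90% lower, 6 of its 18 measured genes passed higher and none lower. These were Ckb, the brain creatine kinase (2.22 ± 0.32, 4.66-fold), Gys2, the liver glycogen synthase (2.27 ± 0.17), Pygb, the brain glycogen phosphorylase (1.08 ± 0.19), Cox6a1, the liver-type cytochrome oxidase subunit (1.00 ± 0.17), and Ampd2 and Ampd3, AMP deaminases of liver and red cells (1.26 ± 0.18 and 1.34 ± 0.13). Ckb read 9.56, 9.21 and 9.80 in TFEB arrays and 6.98, 8.03 and 6.89 in GFP arrays. The measured muscle partners did not pass, with log2 fold changes of -0.07 for Ckm, 0.27 for Gys1, -0.38 for Pygm and -0.33 for Cox6a2. Ampd1, the muscle AMP deaminase, had no probe set of its own. Ckm lay within 0.05 to 0.19 log2 units of the brightest value of each array, where differences are compressed. Without GFP replicate 2 the Gys1 probe sets gave 0.23 and -0.40, neither past the threshold. Other pairs of the list did not show this pattern at the probe sets counted. Neither form passed in the cytochrome oxidase pairs Cox7a2 (0.10) and Cox7a1 (0.18) and Cox8a (0.48) and Cox8b (0.01), nor in the mitochondrial creatine kinases Ckmt1 (0.34) and Ckmt2 (0.22), and the liver phosphorylase Pygl gave -0.16. Probe sets disagreed for Ampd2, whose other probe set gave 0.25 (adjusted p = 0.064), and for Ckmt1, whose dimmer one gave 1.35 (adjusted p = 0.010). Pygm (adjusted p = 0.0092) and Cox6a2 (adjusted p = 0.031), both lower, missed only the fold limit. So did Cox8a, higher, with all TFEB arrays above all GFP arrays (limma adjusted p = 0.0068). Hepatocyte markers did not pass at any of 7 genes, where 13.5% of all genes passed in either direction. Their mean levels were 4.31 to 4.45 in TFEB arrays and 4.56 to 4.64 in GFP arrays. The median log2 fold change of that list was -0.19, and its gene means, 3.15 to 5.68, were low on the scale.

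**Figure D4:**
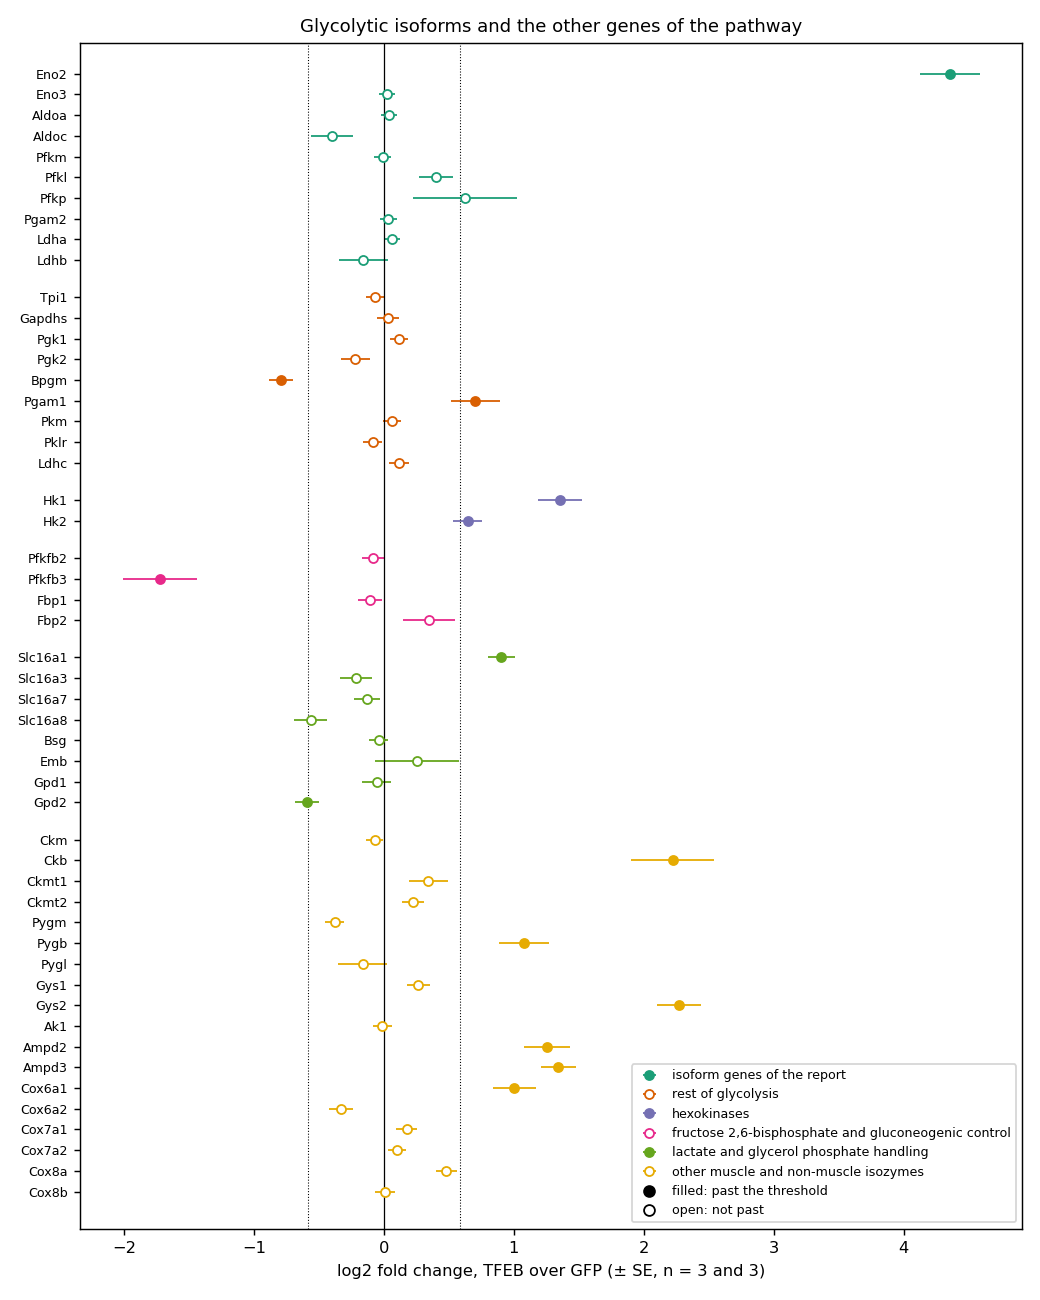
The log2 fold change of TFEB over GFP with its SE (n = 3 and 3) is plotted for the 10 isoform genes and 41 further genes, coloured by list, with filled points past the threshold and dotted lines at 1.5-fold. Eno2 at 4.36 lies farthest to the right, the muscle forms lie near 0, and Pfkfb3 at -1.72 lies farthest to the left.

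Values of the whole data set bear on these results as follows. The single Tfeb probe set was lower in the TFEB group (7.92, 7.68 and 7.61, against 8.49, 8.47 and 8.58 in GFP arrays), and its position relative to the delivered cDNA is unknown here, so delivery was not checked. Skeletal muscle markers were bright in all arrays (mean level 13.3 to 13.4 in each group). Beta-actin read higher at its 3′ than at its 5′ probe set, by 0.22 to 0.34 log2 units in TFEB arrays and 0.04 to 0.08 in GFP arrays, a sign of RNA quality whose part in the changes was not tested. Of 7 fibroblast genes 5 passed higher (mean level of the list 11.3 to 11.6 in TFEB arrays, 9.73 to 10.1 in GFP arrays), and of 6 endothelial genes 3 did (8.10 to 8.35 in TFEB arrays, 7.37 to 7.64 in GFP arrays), against 8.62% of all genes. The brightest fibroblast gene, Dcn, did not pass (-0.03), nor did Flt1 of the endothelial list (-0.22). The part of these cells in the values of Eno2, Pgam1 and the isozymes that rose was not tested. Schwann cell genes had mean levels of 6.42 to 6.83 in TFEB arrays and 6.67 to 7.18 in GFP arrays.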

How the data were processed

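Total RNA of 3 TFEB-injected and 3 GFP-injected muscles was labelled with biotin and hybridized to Affymetrix arrays. The table deposited by the authors holds log2 values, 1 per probe set and array. The submitters' processing notes list affy and RMA without versions, that is, background-corrected and quantile-normalized probe summaries. The study's array methods were not read. RMA compresses very bright and very dim signals, and arrays carry no count depth, so their number limits the precision. Of 22690 rows, 64 Affymetrix controls were left out and 22626 probe sets tested, of which GEO's platform annotation gives 1 symbol to 20380, several to 691 and none to 1555.

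The groups were compared with limma 3.58.1 in R 4.3.3 (lmFit, eBayes, two-sided) with Benjamini-Hochberg adjustment over 22626 probe sets. The limits, an adjusted p of 0.05 and 1.5-fold, are those of the legend to the study's gene list. The fit was tested on simulated data. Pairs of isoforms were compared by exact permutation. Genes named are the 10 isoforms, Pgam1, every gene of the 5 pathway lists past the threshold, up to 2 brightest genes of a marker list and the 3 nearest genes of Eno2 and Aldoc. Other names in the text were chosen after their values were seen. They are Tfeb, Tubb3, Snap25, Gap43, Map2, the slow fibre contractile genes, Dcn, Flt1 and the partners or family members that did not pass. The 10 isoforms and all lists were chosen with earlier results of these data known. Of 178 list entries, 148 had a probe set. Promoters are RefSeq's (GRCm38.p6), matched by symbol for all 10 genes. The array values have no genome build. Nothing in the labels says that the 3 mice of a group came from separate litters or days. The labels do not say whether arrays with the same replicate number were paired, and the groups were compared as unpaired. Same-numbered arrays correlated at 0.42, 0.17 and -0.23 in their deviations from the group means. With 3 arrays per group these deviations depend on each other, so the correlations cannot settle whether arrays were paired. Alternatives were scaling, probe set choice, each array left out, replicate block, prior, array weights, brightness filter, a two-tailed test and no fold limit.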

Additional observations from a re-analysis of the deposited data

How the results depend on the processing

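Eno2 passed the threshold under all alternatives that kept it (log2 fold change 4.13 to 4.61, adjusted p 9.1e-05 to 0.013). The number of isoform genes higher was 2 without GFP replicate 2 and with array weights, where Pfkp joined (0.94, adjusted p = 0.037), and 0 with the brightness filter, since Eno2's mean lies under the median of all probe sets and was removed. With 1 array left out the number ran from 1 to 2, and no isoform gene was lower. Other pathway genes higher ran from 8 to 11 and lower from 2 to 4, and 6 were lower with no fold limit. The small values of the muscle forms turned sign. With equal medians Eno3 was -0.043, Aldoa -0.030, Pgam2 -0.034 and Ldha -0.0080, and Pfkm was 0.053 with fast fibre scaling, 0.0026 without TFEB replicate 3 and 0.014 without GFP replicate 1, and ran from -0.026 to 0.014 with 1 array left out. Without TFEB replicate 3, Ldhb was 0.071, of a range from -0.30 to 0.071 with 1 array left out, and the balance of Ldhb over Ldha was 0.012. With arrays left out, the balance ran from -0.37 to 0.012 for Ldhb over Ldha, 0.32 to 1.14 for Pfkp over Pfkm, 0.29 to 0.54 for Pfkl over Pfkm, 0.52 to 0.90 for Pgam1 over Pgam2, -0.58 to -0.31 for Aldoc over Aldoa and 4.11 to 4.59 for Eno2 over Eno3. Hk2 fell under the fold limit with equal medians (0.58) and without TFEB replicate 3 (0.56), Gpd2 also with fast fibre scaling (-0.53) and repeated quantile normalization (-0.58), and Pgam1 missed the adjusted p with the two-tailed test (0.11). The cause of these changes was not tested. Of the calls on all probe sets, 55.2% were higher as deposited, 45.2% with equal medians and 64.3% with fast fibre scaling. With the replicate number as a block, 1 isoform gene and 10 other pathway genes were higher, 3 other pathway genes were lower, no call of these genes changed and the balance of Eno2 over Eno3 changed by 4.33 ± 0.28. Low signal limits the reading of Aldoc and of Eno2 in GFP arrays, and the top of the scale that of the muscle forms.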
